A study of Homo sapiens with 6 samples.

Results

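The unfolded protein response sensors, the machinery of endoplasmic reticulum (ER)-associated degradation (ERAD), and the translocon and signal peptidase genes were examined in KYSE150 cells. They were taken by name as 41 symbols, of which VIMP is the older name of SELENOS, so they stand for 40 of the 67140 genes in the count table. The established human line KYSE150 comes from an esophageal squamous cell carcinoma (ESCC) and was compared as 3 samples carrying the control hairpin shCtrl and 3 carrying shAC007128.1, a short hairpin RNA against the lncRNA AC007128.1. Both groups were grown in RPMI 1640 with 10% fetal bovine serum, and the methods describe stable lines made by lentivirus and puromycin selection. Each group rests on 1 hairpin and 1 cell line. The labels do not say that the samples of a group came from separate cultures, so the p-values measure the spread between these samples, which may be technical.

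Proteins that enter the ER are threaded through the SEC61 channel, lose their signal peptide to the signal peptidase and are folded in the lumen. Proteins that fail to fold are recognized, passed back through the membrane by the HRD1 (SYVN1) ubiquitin ligase complex, pulled out by the ATPase p97 (VCP) and degraded by the proteasome, which is the path called ERAD. When unfolded proteins build up, the sensors IRE1 (ERN1), PERK (EIF2AK3) and ATF6 start the unfolded protein response (UPR), whose transcription factors, the spliced form of XBP1 and the cleaved form of ATF6, raise the expression of chaperones and of many ERAD and translocation genes. Carcinoma cells that secrete much protein or lack nutrients are known to lean on this response.

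Total counts ranged from 55764405 to 78610457 per sample, and 3 counts, taken as the smallest detectable level, corresponded to 0.0382 to 0.0538 CPM (counts scaled to a common library size by TMM, a trimmed-mean scaling). Low counts piled up at multiples of 4, so a single fragment may stand for several counts, and such floors cover counting error only. The targeted AC007128.1 had 69, 33 and 53 counts in the shCtrl samples and 18, 37 and 15 in the shAC007128.1 samples, so the groups overlapped and a difference was not detected (log2 fold change -0.77, standard error (SE) 0.51, adjusted p = 0.271 by edgeR). Of the 7 squamous epithelial markers, all were detected in every sample, and their summed level was 1320 to 1350 CPM in shCtrl and 2020 to 2540 CPM in shAC007128.1 cells. Of these markers KRT5, KRT14, KRT6A and EPCAM passed as higher, DSG3 passed as lower (log2 fold change -1.09), and KRT17 and TP63 did not pass. Summed levels of the 5 fibroblast markers were 15.1 to 16 and 20.8 to 23.8 CPM, with COL1A1 and LUM passing as higher and PDGFRB as lower, and with COL1A2 and COL3A1 at 0 in every shAC007128.1 sample and at 0 to 16 counts in shCtrl. Those of the 4 endothelial markers were 2.12 to 3.11 and 0.302 to 2.02 CPM. The 5 leukocyte markers summed to 59.1 to 67.9 and 14.8 to 24.2 CPM, nearly all of it CD68, a lysosomal protein that is not limited to leukocytes. CD68 passed as lower (log2 fold change -1.87). CD79A passed as higher, at 0 to 4 counts in shCtrl and 17 to 20 in shAC007128.1 samples, and CD3E did not pass. LYZ and PTPRC were not tested, and PTPRC, which defines leukocytes, stayed at or under 0.164 CPM. The part of these marker differences in the results that follow was not tested, and in bulk samples fewer cells of a kind and less RNA per cell cannot be told apart.

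Of the 40 genes, 39 passed the filter on low counts and entered edgeR's quasi-likelihood test among 19254 genes in all. A gene was said to pass when its p, adjusted by Benjamini-Hochberg over all genes tested, was 0.05 or less, and was called when it also changed at least 2-fold. In shAC007128.1 cells 16 of the 39 were lower (41%), where 19.8% of all genes tested passed as lower, and 6 were higher (15.4%), where 21.0% of all genes tested passed as higher. The other 17 did not pass. At 2-fold, 5 were called lower (12.8%, against 10.1% of all genes tested) and 1 was called higher (2.56%, against 5.57%), so at this limit the share called lower lay near the background. In 26 of the 39 (66.7%) the shAC007128.1 samples lay wholly above or below the shCtrl samples, which held for 55.2% of all genes tested. The median log2 fold change of the 39 was -0.25, with a range from -2.45 to 1.03, and that of all genes tested was -0.02. As the plot of fold changes shows, the 3 largest falls were those of HERPUD1 and SEL1L, of the HRD1 complex, and of XBP1, all 3 p97 extraction genes rose, and the translocon, the translocon-associated TRAP complex and the signal peptidase each held members that rose and members that fell.

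**Figure D1:**
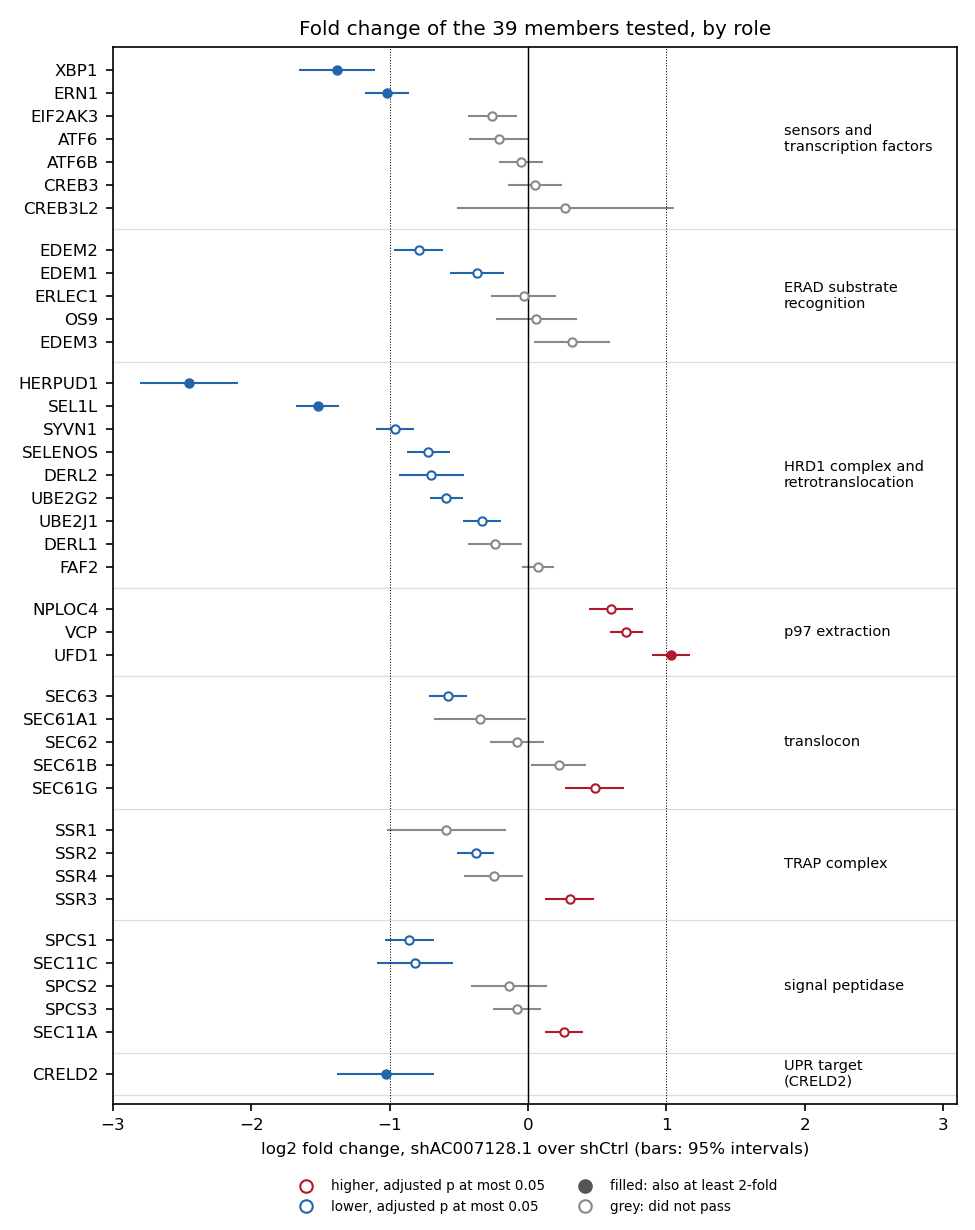
Log2 fold change (shAC007128.1 over shCtrl, horizontal axis) of the 39 genes tested, grouped by role, with bars for the 95% interval. HERPUD1 at -2.45 and SEL1L at -1.52 lie furthest to the left, and the p97 genes NPLOC4, VCP and UFD1, at 0.60 to 1.03, furthest to the right.

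Promoter windows from RefSeq (GRCh38.p14) reach from 250 bases before to 50 bases after a transcription start, and 36 of the 40 genes had 43 such windows (none was given for DERL1, DERL3, SPCS1 and UFD1). They were searched on both strands for the ER stress response element ERSE (CCAAT, a gap of 9 bases, then CCACG), bound by ATF6 with NF-Y, for ERSE-II (ATTGG, a gap of 1 base, then CCACG) and for the UPR element core TGACGTGG, bound by XBP1 and ATF6. ERSE and ERSE-II share the letters CCACG, and the reverse complement of the UPR element core begins with the same letters, so matches can overlap. ERSE was found in 2 of the 43 windows (4.65%), against 0.0769% of 35116 windows of all genes, and ERSE-II in 1 (2.33%, against 0.0541%). In 32 windows of the ER stress response genes outside this set the shares were higher, 18.8% and 6.25%. The 3 windows of this set belonged to XBP1, CRELD2 and HERPUD1, which were 3 of the 5 genes called lower. Of the 16 windows of genes that passed as lower, 12.5% held an ERSE and 6.25% an ERSE-II. Neither was found in the 8 windows of genes that rose or the 19 of genes that did not pass. The UPR element core was found in 5 windows (11.6%, against 0.729% of all windows). They belonged to UBE2J1, which fell, to VCP and SSR3, which rose, and to SEC62 and SSR4, which did not pass, so windows with this core were found in genes of either direction. A match is a description of letters and not a measured binding site. The windows of the 3 genes with an ERSE or ERSE-II, and that of VCP for contrast, are shown on the strand of each gene with the matched letters in capitals. The ERSE of XBP1 lies in chr22:28800520-28800819 (minus strand) from 52 to 34 bases before the start, that of CRELD2 in chr22:49918384-49918683 (plus strand) in reverse orientation from 80 to 62 bases before it. The ERSE-II of HERPUD1 lies in chr16:56931892-56932191 (plus strand) from 117 to 107 bases before the start, and the UPR element core of VCP in chr9:35072576-35072875 (minus strand) from 189 to 182 bases before it.
XBP1: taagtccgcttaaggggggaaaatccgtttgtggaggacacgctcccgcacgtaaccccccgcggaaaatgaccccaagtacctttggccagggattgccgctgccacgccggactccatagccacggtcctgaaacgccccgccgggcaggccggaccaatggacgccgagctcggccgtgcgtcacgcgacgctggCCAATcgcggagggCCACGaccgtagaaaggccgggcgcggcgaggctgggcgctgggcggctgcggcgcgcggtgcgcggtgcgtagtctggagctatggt
CRELD2: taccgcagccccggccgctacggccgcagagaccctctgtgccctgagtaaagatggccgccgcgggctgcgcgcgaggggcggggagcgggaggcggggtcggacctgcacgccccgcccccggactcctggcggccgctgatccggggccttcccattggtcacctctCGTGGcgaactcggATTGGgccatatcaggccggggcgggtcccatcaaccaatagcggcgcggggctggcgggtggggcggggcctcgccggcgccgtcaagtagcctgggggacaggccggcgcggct
HERPUD1: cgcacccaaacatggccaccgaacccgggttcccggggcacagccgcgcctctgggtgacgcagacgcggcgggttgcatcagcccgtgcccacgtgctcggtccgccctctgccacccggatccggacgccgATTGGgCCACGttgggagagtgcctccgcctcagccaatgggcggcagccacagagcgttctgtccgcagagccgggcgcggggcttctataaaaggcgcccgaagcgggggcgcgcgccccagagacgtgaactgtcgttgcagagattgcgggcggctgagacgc
VCP: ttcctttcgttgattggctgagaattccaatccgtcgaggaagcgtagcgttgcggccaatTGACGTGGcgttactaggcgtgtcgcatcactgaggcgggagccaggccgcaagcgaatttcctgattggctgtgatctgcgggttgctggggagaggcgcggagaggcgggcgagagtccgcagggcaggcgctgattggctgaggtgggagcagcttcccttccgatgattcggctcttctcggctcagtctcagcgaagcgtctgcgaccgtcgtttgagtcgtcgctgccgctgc

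Among the 7 sensors and transcription factors, ERN1 and XBP1, of the IRE1 branch, fell and the other 5 genes did not pass. The share that fell was 28.6%, against 19.8% of all genes tested. ERN1 encodes IRE1, the membrane kinase and endoribonuclease that splices XBP1 mRNA (ENSG00000178607, chromosome 17, 64039080 to 64130819). Its scaled level was 56.1, 56.7 and 58.0 CPM in shCtrl replicates 1, 2 and 3, and 29.0, 28.2 and 27.0 CPM in shAC007128.1 replicates 1, 2 and 3. The groups were far apart, with a spread of about 1 CPM in each, and the log2 fold change was -1.02 (SE 0.08, adjusted p = 0.000101 by edgeR). The distance of ERN1 from 2-fold was smaller than its error, and after correction for GC content it was at -0.98, still past the test but under 2-fold. XBP1, the transcription factor whose mRNA IRE1 splices (ENSG00000100219, chromosome 22, 28794555 to 28800597), was at 191, 177 and 170 CPM in shCtrl cells and at 58.0, 84.6 and 64.2 CPM in shAC007128.1 cells. All shAC007128.1 samples lay below all shCtrl samples, with a log2 fold change of -1.38 (SE 0.14, adjusted p = 0.000368 by edgeR). These counts are per gene and do not tell the spliced from the unspliced form of XBP1.

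EIF2AK3, which encodes the kinase PERK, had 39.3 to 42.5 CPM in shCtrl and 31.7 to 35.8 CPM in shAC007128.1 cells. Its groups did not overlap, but the log2 fold change of -0.26 (SE 0.09) missed the threshold (adjusted p = 0.0518 by edgeR) and passed it in 8 of 16 alternative settings. ATF6, the sensor that is cleaved to a transcription factor, went from 104 ± 2.90 to 90.1 ± 12.4 CPM (SD, n = 3 each), and its 95% interval ran from -0.42 to 0.00 on the log2 scale. It passed as lower after correction for GC content (-0.36, adjusted p = 0.00382 by edgeR) and without shAC007128.1 replicate 3 (-0.34, adjusted p = 0.00405 by edgeR). Its relative ATF6B had a log2 fold change of -0.05 (95% interval -0.21 to 0.11) and CREB3, a membrane-bound factor of the same cleaved kind, one of 0.05 (-0.16 to 0.25). CREB3L2 belongs to the family of CREB3. It was at 127, 37.8 and 127 CPM in shCtrl replicates 1, 2 and 3 and at 114, 117 and 120 CPM in shAC007128.1 cells. Its shCtrl replicate 2 stood far below the other 5 samples, and the log2 fold change was 0.27 with it and -0.12 without it, neither of which passed. Per length, XBP1 was the most abundant of the 7 at 207 ± 8.45 TPM (CPM further divided by transcript length and rescaled; SD, n = 3) in shCtrl cells and 78.0 ± 17.0 TPM in shAC007128.1 cells, and ERN1 the least abundant at 14.9 ± 0.552 and 7.19 ± 0.218 TPM.

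The HRD1 ubiquitin ligase complex and its partners in retrotranslocation held the deepest falls of the set, HERPUD1 and SEL1L. Of 10 genes, 9 were tested and 7 fell (77.8%, against 19.8% of all genes tested). Of these 7, 2 fell at least 2-fold, where 10.1% of all genes tested were called lower. The other 2 did not pass, and the median log2 fold change was -0.70. HERPUD1 encodes a membrane protein that organizes the complex and is itself a classical UPR target (ENSG00000051108, chromosome 16, 56932142 to 56944864). It was at 188, 293 and 265 CPM in shCtrl replicates 1, 2 and 3 and at 41.2, 50.5 and 44.8 CPM in the shAC007128.1 samples. Even its lowest shCtrl sample was above 3 times the highest shAC007128.1 sample, and the level was 5.47-fold lower after the hairpin (log2 fold change -2.45, SE 0.18, adjusted p = 8.27e-05 by edgeR). SEL1L, the adaptor that holds HRD1 in place and links it to substrate lectins (ENSG00000071537, chromosome 14, 81471547 to 81533853), was at 324, 332 and 321 CPM in shCtrl and at 104, 111 and 126 CPM in shAC007128.1 cells. The groups were widely separated and the log2 fold change was -1.52 (SE 0.08, adjusted p = 3.61e-05 by edgeR). SYVN1, the ligase HRD1 itself, averaged 106 ± 2.68 CPM in shCtrl and 54.7 ± 2.20 CPM in shAC007128.1 cells (SD, n = 3 each), with a log2 fold change of -0.96 (SE 0.07, adjusted p = 0.000102 by edgeR), just short of 2-fold.

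SELENOS (VIMP), the selenoprotein that recruits p97 to the membrane, fell by 0.72 on the log2 scale (SE 0.08, adjusted p = 0.000576 by edgeR), from 79.0 ± 3.99 to 48.1 ± 2.70 CPM. DERL2, one of the Derlin channel proteins, fell by 0.70 (SE 0.12). The ubiquitin-conjugating enzymes of the pathway also fell, UBE2G2 by 0.59 (SE 0.06) from 275 ± 9.68 to 182 ± 3.84 CPM and UBE2J1 by 0.33 (SE 0.07) from 71.9 ± 0.995 to 57.1 ± 1.31 CPM. The largest adjusted p of these 4 genes was 0.00807 (edgeR). DERL1 had 96.9 to 117 CPM in shCtrl and 80.1 to 93.1 CPM in shAC007128.1 cells, with a log2 fold change of -0.24 that did not pass (adjusted p = 0.101 by edgeR) but did after correction for GC content (-0.35, adjusted p = 0.0211 by edgeR). FAF2, a UBX protein that helps to bring p97 to the membrane, was the only one of the 9 with a positive value, at 228 ± 8.81 and 239 ± 7.08 CPM with a 95% interval from -0.06 to 0.19. DERL3, a Derlin of secretory cells, had 8, 0 and 4 counts in shCtrl and 0 in each shAC007128.1 sample and was not tested, and 77% of its exonic bases lie opposite exons of SMARCB1.

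All 3 genes of p97 extraction rose, where 21.0% of all genes tested passed as higher. VCP, the ATPase p97, was at 241, 241 and 229 CPM in shCtrl and at 388, 383 and 390 CPM in shAC007128.1 cells. The shAC007128.1 samples differed by less than 10 CPM among themselves and lay far above shCtrl (log2 fold change 0.71, SE 0.06, adjusted p = 0.00013 by edgeR). UFD1, which with NPLOC4 forms the adaptor that feeds ubiquitinated proteins to p97 (ENSG00000070010, chromosome 22, 19449911 to 19479202), was at 57.5, 53.0 and 55.4 CPM in shCtrl and at 110, 113 and 116 CPM in shAC007128.1 cells. It was the one gene of the 39 called higher, with a log2 fold change of 1.03 (SE 0.07, adjusted p = 7.91e-05 by edgeR). That value stood just past 2-fold and dropped under it in 4 alternative settings, among them leaving out shCtrl replicate 2, while the rise itself passed in all 16. NPLOC4 averaged 130 ± 7.35 CPM in shCtrl and 196 ± 13.6 CPM in shAC007128.1 cells, with a log2 fold change of 0.60 (SE 0.08, adjusted p = 0.00116 by edgeR). Summed per length, the 3 genes went from 256 ± 3.73 to 427 ± 5.27 TPM (SD, n = 3 each), 167% of control, while the 10 HRD1 complex genes went from 881 ± 61.0 to 497 ± 13.2 TPM, 56.5% of control.

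**Figure D2:**
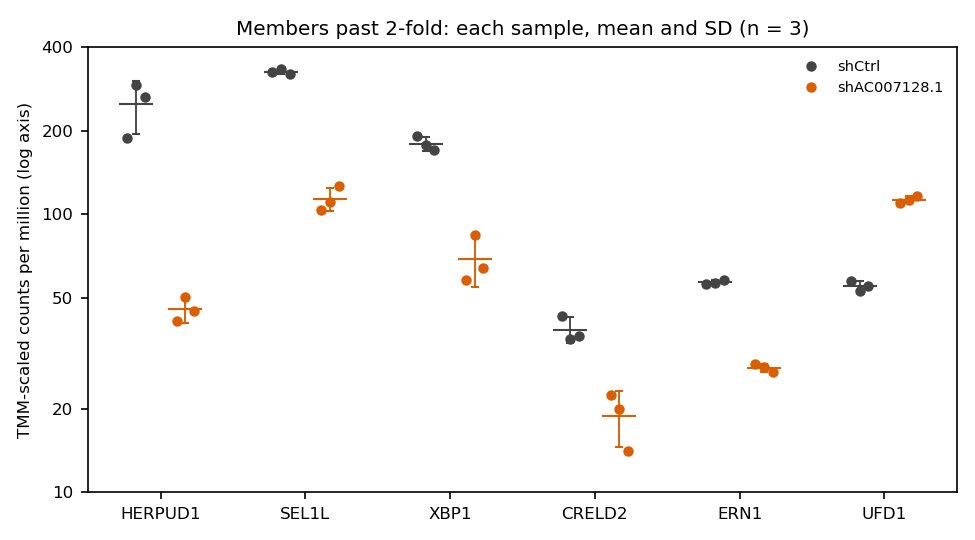
TMM-scaled CPM (log axis) of the 6 genes that passed and changed at least 2-fold, in each of the 3 shCtrl and 3 shAC007128.1 samples, with the mean and SD. In every one of the 6 the groups do not overlap, and HERPUD1 shows the widest spread among shCtrl samples, from 188 to 293.

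The 5 ERAD genes that recognize misfolded glycoproteins did not move as 1 group. EDEM2, a mannosidase that trims glycans to mark proteins for degradation, was at 94.5, 91.4 and 87.5 CPM in shCtrl and at 55.7, 53.6 and 48.3 CPM in shAC007128.1 cells. The groups did not overlap, and the log2 fold change was -0.79 (SE 0.09, adjusted p = 0.000419 by edgeR). EDEM1, of the same family, was at 148, 165 and 147 CPM in shCtrl and at 110, 113 and 134 CPM in shAC007128.1 cells. It passed at -0.37 (SE 0.10, adjusted p = 0.0227 by edgeR), and lost the threshold when shCtrl replicate 1 or 2 or shAC007128.1 replicate 1 or 2 was left out (adjusted p = 0.0529 to 0.087 by edgeR). EDEM3 had 53.6 to 63.4 CPM in shCtrl and 64.3 to 87.4 CPM in shAC007128.1 cells, a log2 fold change of 0.32 that did not pass (adjusted p = 0.113 by edgeR) and was 0.10 after correction for GC content. The lectins OS9 and ERLEC1, which hand glycoproteins to SEL1L, had log2 fold changes of 0.06 (95% interval -0.24 to 0.35) and -0.03 (-0.26 to 0.20). OS9 passed as higher without shAC007128.1 replicate 3 (0.21, adjusted p = 0.0165 by edgeR) and ERLEC1 as lower after correction for GC content (-0.25, adjusted p = 0.0447 by edgeR). OS9 shares 15.9% of its exonic bases with AGAP2-AS1 on the same strand.

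In the translocon, 1 of the 5 genes rose (20%), 1 fell (20%) and 3 did not pass. Of all genes tested, 21.0% passed as higher and 19.8% as lower, so these shares lay near the background. SEC63, the J-domain protein that couples the channel to the lumenal chaperone BiP, was at 187, 189 and 183 CPM in shCtrl and at 121, 120 and 134 CPM in shAC007128.1 cells. It was clearly lower, with a log2 fold change of -0.58 (SE 0.07, adjusted p = 0.000752 by edgeR). SEC62, its partner in post-translational import, did not pass (99.0 ± 2.44 and 93.4 ± 12.4 CPM, log2 fold change -0.08, 95% interval -0.29 to 0.12), but passed as lower after correction for GC content (-0.34, adjusted p = 0.00299 by edgeR) and without shAC007128.1 replicate 3 (-0.21, adjusted p = 0.0206 by edgeR). SEC61G, the smallest channel subunit, was at 78.8, 82.1 and 77.3 CPM in shCtrl and at 116, 94.2 and 122 CPM in shAC007128.1 cells. It passed as higher, with a log2 fold change of 0.48 (SE 0.11, adjusted p = 0.0102 by edgeR), but not after correction for GC content (0.22, adjusted p = 0.0895 by edgeR). SEC61B had a log2 fold change of 0.22 (adjusted p = 0.115 by edgeR), and passed without shAC007128.1 replicate 3 (0.29, adjusted p = 0.00955 by edgeR). SEC61A1, the pore itself, was at 357, 248 and 414 CPM in shCtrl and at 268, 276 and 255 CPM in shAC007128.1 cells. Its shCtrl replicate 2 was the lowest of all 6 samples, and without that sample the log2 fold change went from -0.35 (adjusted p = 0.141 by edgeR) to -0.54 (adjusted p = 0.00814 by edgeR). The 5 genes summed to 771 ± 79.5 CPM in shCtrl and 672 ± 13.6 CPM in shAC007128.1 cells. These groups overlapped, with shCtrl replicate 2 at 683 and the shAC007128.1 samples at 659 to 686 CPM. Per length, where the short SEC61G and SEC61B weigh more, the sums were 920 ± 45.0 and 1020 ± 31.5 TPM, without overlap. The direction of the mean sum thus depended on the scale.

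The TRAP complex, which sits beside the channel and helps some signal sequences to enter, held 1 gene that rose and 1 that fell. Each was 25% of its 4 genes, near the 21.0% and 19.8% of all genes tested. SSR2 was at 139, 149 and 137 CPM in shCtrl and at 105, 111 and 110 CPM in shAC007128.1 cells, and fell by 0.38 on the log2 scale (SE 0.07, adjusted p = 0.00396 by edgeR). SSR3 was at 206, 211 and 207 CPM in shCtrl and at 241, 239 and 289 CPM in shAC007128.1 cells. It rose by 0.30 (SE 0.09, adjusted p = 0.0285 by edgeR), yet 20.8% of its exonic bases lie opposite a lncRNA and it lost the threshold whichever shCtrl sample was left out (adjusted p = 0.0831 to 0.0924 by edgeR). Correction for GC content also took SSR3 below the threshold, at 0.11 (adjusted p = 0.0887 by edgeR). SSR1 had a log2 fold change of -0.59 with overlapping groups (adjusted p = 0.0672 by edgeR). It passed in 7 of 16 alternative settings, among them without shAC007128.1 replicate 1, at -0.88 (adjusted p = 0.00494 by edgeR). SSR4 had one of -0.25 (adjusted p = 0.114 by edgeR), which passed without shAC007128.1 replicate 1 (-0.34, adjusted p = 0.0499 by edgeR) and was -0.07 after correction for GC content.

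The signal peptidase has alternative catalytic subunits, SEC11A and SEC11C, and these went in opposite directions. SEC11C was at 22.4, 18.6 and 19.2 CPM in shCtrl and at 12.9, 10.6 and 10.4 CPM in shAC007128.1 cells, a log2 fold change of -0.82 (SE 0.14, adjusted p = 0.00285 by edgeR). SEC11A was at 71.9, 73.9 and 76.6 CPM in shCtrl and at 92.3, 87.8 and 86.3 CPM in shAC007128.1 cells. It rose by 0.26 (SE 0.07, adjusted p = 0.024 by edgeR), a small change that lost the threshold without any 1 of 5 of the samples, shAC007128.1 replicate 3 being the exception. Per length, the ratio of SEC11C to SEC11A was 0.425, 0.343 and 0.341 in shCtrl and 0.191, 0.165 and 0.165 in shAC007128.1 cells. The ratios did not overlap (two-sided exact permutation p = 0.1, the smallest that 3 samples against 3 allow), and this pair was chosen after its values were seen. SPCS1, a non-catalytic subunit, averaged 120 ± 3.58 CPM in shCtrl and 66.0 ± 6.66 CPM in shAC007128.1 cells, with a log2 fold change of -0.86 (SE 0.09, adjusted p = 0.000423 by edgeR), though 52.8% of its exonic bases lie opposite exons of NEK4, from which reads cannot be told apart if strand was not used in counting. SPCS2 and SPCS3, of the same enzyme, had log2 fold changes of -0.14 (95% interval -0.41 to 0.13) and -0.08 (-0.27 to 0.10). Both passed as lower after correction for GC content, at -0.35 each (adjusted p = 0.0199 and 0.00132 by edgeR), and without shAC007128.1 replicate 3, at -0.30 and -0.18 (adjusted p = 0.0317 and 0.0286 by edgeR).

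CRELD2, a secreted ER protein with a role in folding that is a known UPR target (ENSG00000184164, chromosome 22, 49918167 to 49927540), was at 43.2, 35.6 and 36.6 CPM in shCtrl and at 22.4, 20 and 14.1 CPM in shAC007128.1 cells. The groups were apart, with a log2 fold change of -1.03 (SE 0.18, adjusted p = 0.00359 by edgeR), and its distance from 2-fold was smaller than its error. Without shCtrl replicate 1 or shAC007128.1 replicate 3 the value was -0.94 or -0.87, under 2-fold but still past the test.

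**Figure D3:**
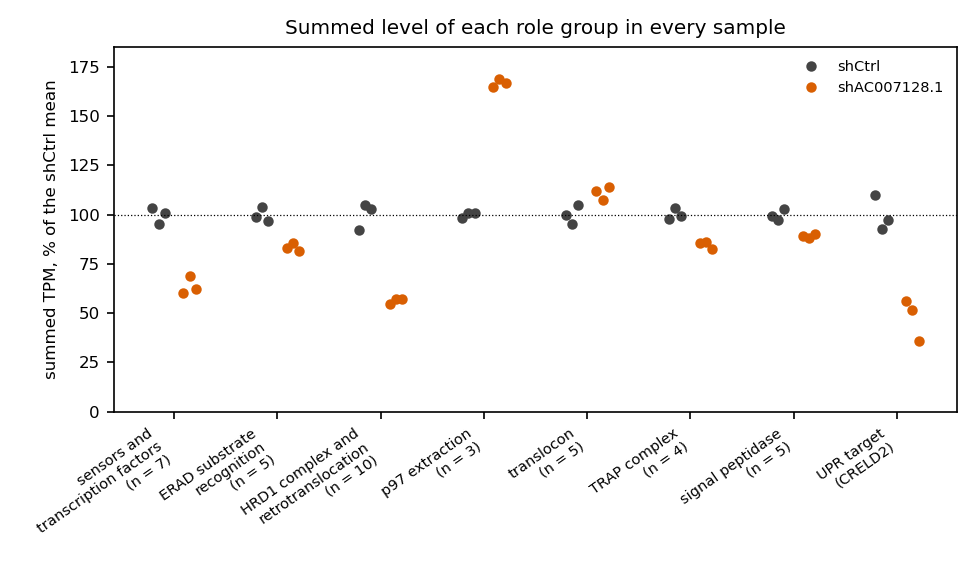
Summed TPM of each role group in every sample, as a percentage of the shCtrl mean of that group (vertical axis), for the 3 shCtrl and the 3 shAC007128.1 samples. HRD1 complex genes sit at 56.5% of control on average and p97 extraction genes at 167%, while the translocon is at 111%.

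Over all 40 genes the summed level went from 3750, 3830 and 3900 TPM in the shCtrl samples to 3340, 3370 and 3360 TPM in the shAC007128.1 samples, 87.7% of control. The per-length sums of every role group except p97 extraction and the translocon were lower in each shAC007128.1 sample than in any shCtrl sample. The sensors and transcription factors were at 63.8% of control, but most of that difference was XBP1, and the sum of the other 6 genes was at 93.2% of control with overlapping groups. The sums were at 83.5% for ERAD substrate recognition, 84.7% for the TRAP complex and 89.2% for the signal peptidase. The most abundant genes per length were SEC61G, SSR2, SSR4, SEC61B and XBP1 in shCtrl cells, at 387 ± 11.9, 265 ± 11.7, 258 ± 7.39, 244 ± 3.26 and 207 ± 8.45 TPM. In shAC007128.1 cells SEC61G was at 526 ± 64.6 TPM and SEC61B at 278 ± 31.4 TPM, and XBP1, at 78.0 ± 17.0 TPM, no longer stood beside them. Other partners also shifted against each other per length. The ratio of SEL1L to SYVN1 was 1.13 to 1.23 in shCtrl and 0.746 to 0.892 in shAC007128.1 cells, and that of EDEM2 to EDEM3 was 5.24 to 6.07 and 2 to 3.14. Of 6 such pairs computed, all chosen after their values were seen, each had a two-sided exact permutation p of 0.1, the smallest this design allows and unchanged by Benjamini-Hochberg adjustment.

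Further lists of ER genes, written without the genes above, are read against the same shares of all genes tested, 21.0% passing as higher and 19.8% as lower, and the lists were not tested against each other. Of 22 tested ER stress response genes, 19 passed as lower (86.4%) and 1 passed as higher (4.55%), with a median log2 fold change of -1.14. At 2-fold 13 of the 22 were called lower, where 10.1% of all genes tested were. HSPA5, which encodes the chaperone BiP, went from 8920 ± 147 to 890 ± 40.9 CPM (log2 fold change -3.33, SE 0.05). TRIB3, a pseudokinase induced by ATF4 and CHOP, went from 379 ± 30.2 to 75.4 ± 6.02 CPM, and PDIA4, a lumenal disulfide isomerase, from 717 ± 21.0 to 242 ± 12.5 CPM. Of 34 other ERAD factors 9 passed as higher (26.5%) and 5 as lower (14.7%), with a median of 0.06. Among these, the deubiquitinase YOD1, which works with p97, rose by 1.32 on the log2 scale (SE 0.13) and the ubiquitin shuttle factor UBQLN1 by 0.58. Of 27 genes for ER targeting and insertion 6 were higher (22.2%) and 5 lower (18.5%), with a median of 0.06, close to the shares of all genes. GET1, a receptor subunit for tail-anchored proteins, rose by 1.25 and EMC1, of the ER membrane complex, by 0.48, while SRPRA, of the signal recognition particle receptor, fell by 0.43. Of 11 genes of the oligosaccharyltransferase, which attaches glycans at the translocon, 2 were higher and 2 lower (18.2% each), also close to those shares, with a median of -0.10. DDOST fell by 1.24 (SE 0.06), STT3B by 0.83, and RPN1 rose by 0.25. The largest adjusted p of the genes named from these lists was 0.0129 (edgeR).

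**Figure D4:**
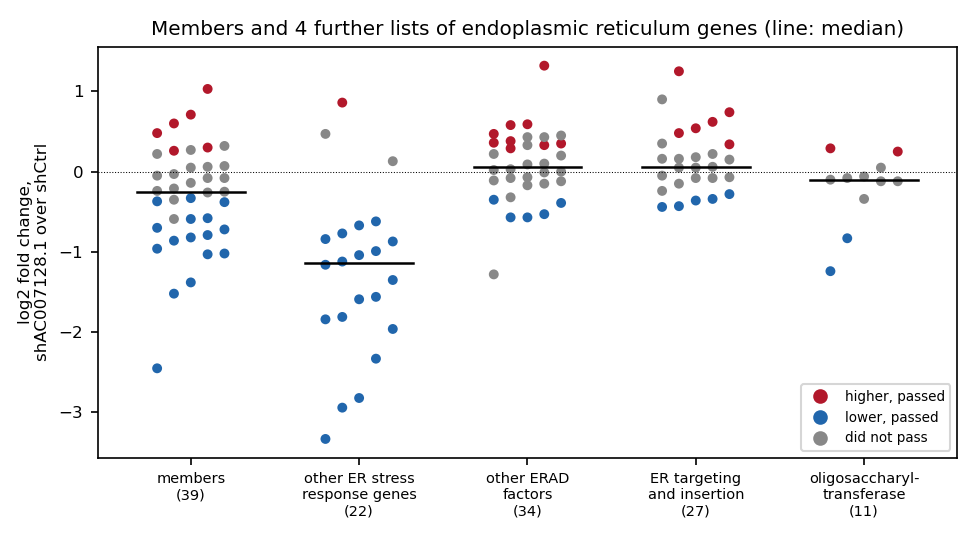
Log2 fold changes (vertical axis, shAC007128.1 over shCtrl) of the 39 genes tested and of 4 further lists of ER genes, each point a gene coloured by whether it passed and in which direction, with the median as a line. The medians are -0.25 for the 39 genes, -1.14 for the other ER stress response genes, 0.06 for other ERAD factors and for targeting and insertion, and -0.10 for the oligosaccharyltransferase.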

How the data were processed

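Poly-A RNA of 3 shCtrl and 3 shAC007128.1 samples was made into paired-end TruSeq libraries and read on a NovaSeq instrument. RNA was extracted with a Qiagen kit per the methods and an Ambion kit per the labels. The authors filtered reads and mapped them to hg38 with TopHat, given as TopHat2 version 2.0.6 in the submitters' processing notes and as a later release in the methods. The authors deposited estimated counts for each Ensembl gene, as whole numbers without normalization. The counting program, annotation release and use of strand are not given in the sources used here.

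Symbols, positions and lengths came from GENCODE v44 (hg38), in which 60357 of 67140 identifiers (89.9%) were found. Genes were filtered with filterByExpr, which removed 47886, then scaled by TMM, and glmQLFit and glmQLFTest of edgeR 4.0.16 (R 4.3.3) gave the tests, checked on simulated data. Standard errors are the log2 fold change over the root of F, and 95% intervals assume a normal error. TPM used the canonical transcript's length. DESeq2 1.42.0 and limma-voom (limma 3.58.1) were alternatives, with others named under the results' dependence on processing.

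The genes and lists were chosen with earlier results of these data known. Every gene of the set was reported, values in every sample for those called or among the 2 smallest p of a role group and for a few others chosen after their values were seen, and the 3 smallest p of each further list, of which 1 gene is not reported here.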

Additional observations from a re-analysis of the deposited data

How the results depend on the processing

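Over 16 alternative settings of the 39 genes, 556 single values kept their direction and their side of the threshold, 34 passed only under the alternative, 22 passed only in the full fit and 12 changed sign, none of which passed under either. The sign changes were ATF6B at 0.09 with GC content correction, with and without the replicate block, CREB3 (-0.03), OS9 (-0.01) and FAF2 (-0.01) with library size only, CREB3 (-0.05), OS9 (-0.05) and ERLEC1 (0.03) without shAC007128.1 replicate 1, OS9 (-0.01) and ERLEC1 (0.00) without shAC007128.1 replicate 2, and CREB3L2 (-0.12) and ERLEC1 (0.05) without shCtrl replicate 2. With each sample left out the ranges were -0.05 to 0.10 for CREB3, -0.12 to 0.50 for CREB3L2, -0.05 to 0.21 for OS9 and -0.14 to 0.05 for ERLEC1. The counts of 6 higher and 16 lower genes were 4 and 23 with GC content correction and 3 and 15 at an adjusted p of at most 0.01. With each sample left out they were 4 to 8 and 15 to 21. Over all genes tested, 4041 passed as higher and 3820 as lower in the full fit. Those counts were 4332 and 4231 with GC content correction, and 3092 to 4306 and 2854 to 4152 with each sample left out. At a fold of at least 1.5 in place of 2, 3 were called higher and 12 lower. Counts over all genes at that fold, or at an adjusted p of at most 0.01, are not given here. None was called higher (0 in place of UFD1) without low-count filtering, with a minimum of 10 counts per sample, with library size only or without shCtrl replicate 2, a range of 0 to 1 over the samples left out. Over all genes those settings called 899 to 1027 higher, against 1073 in the full fit. GC content correction left 3 called lower, with ERN1 at -0.98 and CRELD2 at -0.95. It called 1862 of all genes tested lower, against 1945 in the full fit.

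The median of the 39 genes, -0.25, was -0.32 with library size only, -0.30 without low-count filtering, -0.28 with a minimum of 10 counts per sample, -0.27 after division of counts by 4, -0.35 with GC content correction, -0.36 with that correction and the replicate block, and -0.31 to -0.21 with each sample left out. Library size only moved the median of all genes from -0.02 to -0.10, and no filtering moved it to -0.15. The cause of these changes was not tested. Summed as CPM in place of TPM, the levels were 83.8% of control for all 40 genes. They were 75.3% for the sensors and transcription factors, 88.8% for substrate recognition and 84.3% for the signal peptidase. The TRAP complex was at 94.7%, and the translocon at 87.2% with overlapping groups. Longer genes weigh more in CPM, and the rescaling of TPM also takes out the TMM scaling.

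Same-numbered samples deviated from their group means with correlations of 0.031, -0.025 and -0.03. The labels do not say whether they share more than a number, and these values cannot decide it. With the replicate block 4 genes were higher and 17 lower, SSR3 and SEC11A losing the threshold and SSR1 passing it, and 1 and 5 were called at 2-fold. Over all genes that fit passed 3524 as higher and 3256 as lower, and called 977 and 1692 at 2-fold. The fit left the targeted gene at -0.82 (edgeR adjusted p = 0.363).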
